A study of Homo sapiens with 6 samples.

Results

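Each collagen gene encodes 1 chain of a collagen. The collagen genes were taken as all genes in the expression table whose symbol is COL, a number, A and a number, which gave 39 of 33900 genes. They were measured by RNA sequencing of LX-2, a long-established human cell line derived from hepatic stellate cells, in 3 samples treated with rhSema3C at 300 ng/ml and 3 control samples treated with PBS. The labels give 48 h of treatment, a wild-type genotype, the same serum-containing medium for both groups and biological replicate numbers 1 to 3, and both groups came from this 1 cell line. rhSema3C is recombinant human semaphorin 3C, a secreted guidance protein that was added to the medium. The comparison asks what that protein changed in the transcripts of stellate cells, and the collagen genes are of interest because the activated stellate cell is the main source of scar collagen in the liver.

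A collagen is built from 3 chains wound into a triple helix, either of 1 kind of chain or of several. The fibrillar collagens, such as types I, III and V, form the striated fibrils of scar and connective tissue. The basement membrane collagens of type IV form a sheet-like network under epithelium and along vessels. The fibril-associated collagens lie on the surface of fibrils, and the remaining classes include the beaded filaments of type VI, the short-chain network collagens of types VIII and X, the anchoring fibrils of type VII, the transmembrane collagens and the multiplexins, which carry sugar chains and release fragments such as endostatin. Each chain is hydroxylated and folded in the endoplasmic reticulum, trimmed and crosslinked outside the cell, and read by integrins and discoidin domain receptors.

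The libraries held between 68267808 and 89245585 counts on genes. TMM factors, which scale the libraries to each other, were between 0.958 and 0.968 with PBS and between 1.03 and 1.04 with rhSema3C. Mitochondrial genes took 4.75% to 5.42% of the counts with PBS and 3.73% to 3.93% with rhSema3C. The part of this in the values of single genes was not tested. Levels and changes were put on different scales. FPKM, the deposited level per length and library, serves for comparisons between genes, and CPM, the counts scaled to a common library size with the TMM factors, serves for comparisons between groups.

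The PBS-treated cells expressed 18 of the 39 collagen genes, taking as expressed a level of at least 1 FPKM in all 3 PBS samples. Another 10 were below 0.1 FPKM in all 3 PBS samples and are called not detected, and the 11 between these limits are called low. By class, 5 of 11 fibrillar, 4 of 6 basement membrane, 2 of 6 fibril-associated and 7 of the 16 other collagen genes were expressed. The highest levels were those of COL6A2 at 137 ± 4.64 FPKM, COL1A1 at 96.0 ± 6.80 FPKM and COL5A2 at 79.6 ± 1.63 FPKM (mean ± SD, n = 3), and that of COL6A1, which lay between 95.4 and 105 FPKM. COL6A2 ranked 239 among all 33900 genes by its PBS level, COL6A1 363, COL1A1 379 and COL5A2 475. The ranges of COL6A1 and COL1A1 over the PBS samples overlapped, although COL6A1 was the higher of the pair in each of the 3 samples.

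**Figure D1:**
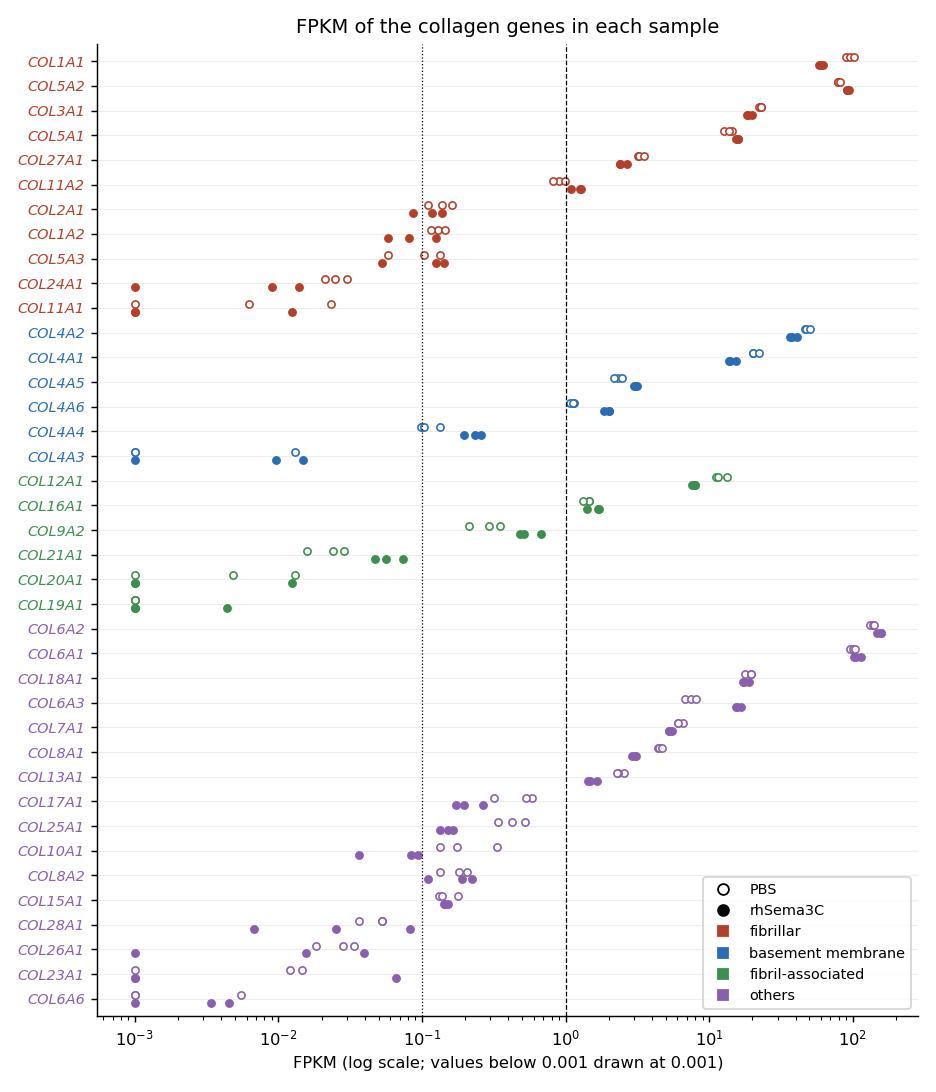
FPKM of each of the 39 collagen genes on a log scale, with 1 circle per sample, open for PBS and filled for rhSema3C, coloured by class. The dashed line marks 1 FPKM and the dotted line 0.1 FPKM, and 18 genes have all 3 open circles at or right of the dashed line.

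The order of levels rested on the length by which each gene was divided. The counts and FPKM of the table together implied a length for each gene, and over 11918 genes above 1 FPKM this was 1.02 times (median) the combined length of all annotated exons in GENCODE v29. For genes with many alternative exons that is much longer than 1 mRNA. Not every collagen gene followed the median. The implied length of COL13A1 was 10112 bases beside 5888 bases of combined exons, and that of COL1A1 was 9189 beside 9819. The combined exons of COL4A2 span 19293 bases, and its transcript with the longest coding sequence spans 6494 bases. Per kilobase of that transcript, COL6A2 stayed first among the 18 expressed genes, at 225 CPM per kilobase, and COL4A2 moved from rank 5 to rank 2, at 152 CPM per kilobase. COL1A1 followed at 136, COL6A1 at 133 and COL5A2 at 87.3 CPM per kilobase. The comparison of a gene with itself between the groups does not depend on this length.

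With rhSema3C, 10 of the 19 collagen genes that could be tested fell and 5 rose, and the largest changes were a rise of COL6A3 and falls of COL1A1, COL13A1, COL12A1, COL8A1 and COL4A1. A gene was called when its adjusted p was below 0.05 in edgeR's quasi-likelihood test over the 14178 genes with a mean of at least 0.5 FPKM. In that test 31.7% of all genes rose and 30.6% fell, 62.3% in either direction, beside 26.3%, 52.6% and 78.9% of the collagen genes tested. The median log2 fold change was -0.18 over the 19 collagen genes and 0.02 over all genes tested. No collagen gene was called at a fold change above 2, which 5.37% of all genes were. None of the 19 had a fitted fold above 2 in edgeR, so the count is 0 at an unadjusted p below 0.05 as well. DESeq2 also gave 0, and limma on log2(FPKM + 0.1) gave 1, COL6A3. Scaling by library size alone moved the median of all genes to 0.13 and scaling to TPM, fitted with limma here and in every TPM value given, moved it to 0.23, so directions near 0 depend on the scaling. In a cell population, fewer cells expressing a gene and less RNA per cell cannot be told apart.

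The other 20 collagen genes were under the filter and were not tested. The groups did not overlap in CPM for 14 of the 19 genes tested, or 73.7%, beside 67.8% of all genes. Each class held genes that fell, and only among the fibril-associated genes, of which 2 were tested, was none called higher. The median log2 fold change was -0.13 for the 6 fibrillar, -0.06 for the 4 basement membrane, -0.32 for the 2 fibril-associated and -0.18 for the 7 other genes tested.

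**Figure D2:**
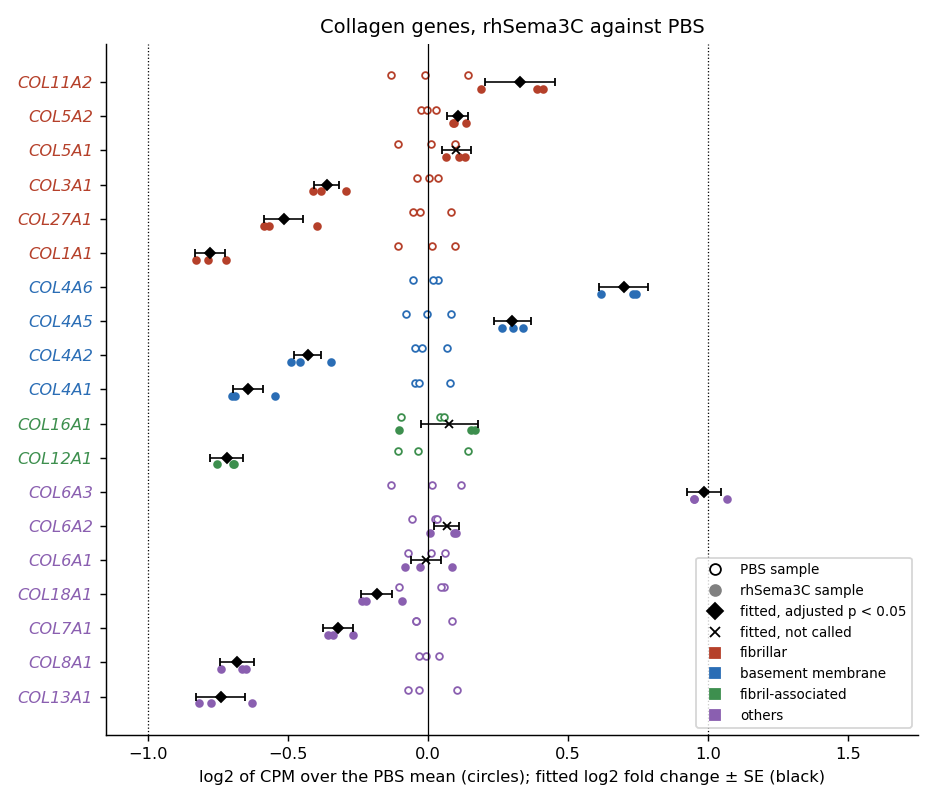
The 19 collagen genes tested, grouped by class, with log2 CPM of each sample relative to the PBS mean (open circles PBS, filled circles rhSema3C) and the fitted log2 fold change with its SE (black, a diamond where called and a cross where not). The dotted lines mark a fold change of 2, and COL6A3 at 0.99 lies just inside it while COL1A1 at -0.78 is the lowest.

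COL1A1, the α1 chain of type I collagen and the main chain of scar fibrils, fell the most of the fibrillar genes. It measured 850.0, 924 and 978 CPM with PBS and 556, 532 and 516 CPM with rhSema3C. Every treated sample was below every control sample, and the fitted fall was 1.72-fold (log2 fold change -0.78, SE 0.05, adjusted p = 4.12e-07). Its span in the table was chr17:50184101-50201632 on the minus strand of GRCh38. The study itself reported the opposite direction in LX-2 cells given rhSema3C, with higher COL1A1 mRNA by qRT-PCR and more collagen I protein. The source of this difference was not tested. COL3A1, the only chain of type III collagen, measured 158, 167 and 163 CPM with PBS and 133, 125 and 122 CPM with rhSema3C, and all 3 treated samples were lower (log2 fold change -0.36, SE 0.04, adjusted p = 3.1e-05). COL27A1, the chain of the thin-fibril type XXVII collagen of cartilage, was expressed at a lower level and measured 47.5, 48.3 and 52.2 CPM with PBS and 37.5, 33.3 and 32.9 CPM with rhSema3C. It too fell without overlap (log2 fold change -0.51, SE 0.07, adjusted p = 6.74e-05).

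The 2 expressed chains of type V collagen, which sits inside type I fibrils and sets their diameter, were not called lower. COL5A2, the α2 chain, measured 608, 617 and 630.0 CPM with PBS and 679, 657 and 659 CPM with rhSema3C. The groups did not overlap, but the rise was small (log2 fold change 0.11, SE 0.04, adjusted p = 0.0314), and its adjusted p was above 0.05 under 8 of 16 other settings, among them median-of-ratios scaling (0.0608) and leaving out PBS replicate 1 (0.0809). COL5A1, the α1 chain, measured 150.0, 172 and 163 CPM with PBS and 177, 169 and 175 CPM with rhSema3C. The groups overlapped and the gene was not called (log2 fold change 0.10, SE 0.05, adjusted p = 0.113). COL11A2, a chain of the cartilage collagen XI, was low in PBS at 0.903 ± 0.0912 FPKM and measured 6.41, 5.88 and 7.11 CPM with PBS and 7.35, 8.44 and 8.56 CPM with rhSema3C. All 3 treated samples were higher (log2 fold change 0.33, SE 0.13, adjusted p = 0.0392), and 7 of 15 other settings gave an adjusted p above 0.05, the highest being 0.116 without rhSema3C replicate 3.

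COL1A2, which encodes the α2 chain that pairs with COL1A1 in ordinary type I collagen, was hardly present. It had 132, 97 and 112 counts with PBS and 121, 60 and 77 counts with rhSema3C. COL1A1 had 64627 to 73105 counts in the same PBS samples. In FPKM, COL1A1 exceeded COL1A2 by 498.5 to 1038 times over the 6 samples. The treated and control samples of COL1A2 overlapped, and without a filter on low genes it was not called (log2 fold change -0.65, SE 0.30, adjusted p = 0.182). Of the remaining fibrillar genes, COL2A1 lay between 0.0865 and 0.161 FPKM and COL5A3 between 0.0523 and 0.142 FPKM in the 6 samples. COL24A1 had at most 21 counts and COL11A1 at most 16 counts in any sample.

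Among the type IV genes, the common pair of chains fell and a rarer pair rose. The 6 genes lie in the genome as 3 pairs, each in divergent orientation from a shared start region. COL4A1 and COL4A2, whose chains form the network of most basement membranes, are the pair on chromosome 13. COL4A5 and COL4A6, whose chains occur together in the basement membranes of smooth muscle and some epithelia, are the pair on the X chromosome. COL4A3 and COL4A4 on chromosome 2 are known from the kidney filter.

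The start regions of the pairs that changed are shown because both members of a pair changed in the same direction, though by unequal amounts. Whether the start region had a part in these changes was not tested. They are RefSeq windows on GRCh38.p14, from 250 bases before to 50 bases after each start, and such windows were found for 31 of the 39 collagen genes. The COL4A2 window lies at chr13:110307034-110307333 on the plus strand, and the capitals mark the 128 bases from the COL4A1 start to the COL4A2 start, both included. The COL4A5 window lies at chrX:108439588-108439887 on the plus strand and the COL4A6 window at chrX:108439409-108439708 on the minus strand. Their capitals mark the 121 bases that both windows share, read from opposite strands.
COL4A2: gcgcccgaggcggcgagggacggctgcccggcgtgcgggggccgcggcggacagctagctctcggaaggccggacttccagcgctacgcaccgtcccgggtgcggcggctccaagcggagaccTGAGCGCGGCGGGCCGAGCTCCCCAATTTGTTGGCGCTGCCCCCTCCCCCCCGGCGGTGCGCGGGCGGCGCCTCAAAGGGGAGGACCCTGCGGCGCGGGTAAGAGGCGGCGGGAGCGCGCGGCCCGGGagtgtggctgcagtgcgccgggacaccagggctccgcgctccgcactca
COL4A5: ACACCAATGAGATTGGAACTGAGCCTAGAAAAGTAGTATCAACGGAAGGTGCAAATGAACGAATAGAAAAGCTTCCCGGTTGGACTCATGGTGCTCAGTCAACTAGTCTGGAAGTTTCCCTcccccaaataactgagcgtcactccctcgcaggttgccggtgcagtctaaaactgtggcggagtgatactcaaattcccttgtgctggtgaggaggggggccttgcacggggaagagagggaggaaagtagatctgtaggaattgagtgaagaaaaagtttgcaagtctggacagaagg
COL4A6: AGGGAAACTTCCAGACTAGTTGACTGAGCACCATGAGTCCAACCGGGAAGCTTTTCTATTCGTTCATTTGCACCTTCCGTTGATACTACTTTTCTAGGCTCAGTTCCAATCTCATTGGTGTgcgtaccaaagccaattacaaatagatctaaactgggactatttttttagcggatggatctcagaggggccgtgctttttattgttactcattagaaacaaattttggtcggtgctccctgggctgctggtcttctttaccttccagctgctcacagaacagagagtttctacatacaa
The COL4A2 window was 77.7% G and C, and the COL4A5 and COL4A6 windows were 49.3% and 43.7%. GGGCGG, the GC box, was found on either strand once in the COL4A2 window and not in the other 2, beside 45.0% of all 35116 windows. CCAAT was found once for COL4A2, 2 times for COL4A5 and 3 times for COL4A6, beside 34.6% of all windows. The COL4A5 matches lie in the bases that its window shares with that of COL4A6 and were counted for both genes. TATAAA (11.5% of all windows), TGANTCA, the AP-1 motif (7.71%), and the NF-κB consensus (11.3%) were in none of the 3 windows. These matches describe the letters and not the binding of any factor.

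COL4A2 measured 956, 972 and 1032 CPM with PBS and 777, 702 and 719 CPM with rhSema3C. COL4A1 measured 316, 319 and 344 CPM with PBS and 223, 202 and 200.4 CPM with rhSema3C. In both genes every treated sample was below every control sample. The fall was 1.35-fold for COL4A2 (log2 fold change -0.43, SE 0.05, adjusted p = 1.69e-05) and 1.56-fold for COL4A1 (log2 fold change -0.64, SE 0.05, adjusted p = 1.57e-06). Their spans overlap by 1346 bases on opposite strands, and it is not stated whether the counting used strand, so reads there could have been given to either.

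COL4A6 measured 11.3, 10.6 and 11.1 CPM with PBS and 18.4, 18.3 and 16.9 CPM with rhSema3C. COL4A5 measured 29.1, 27.6 and 30.9 CPM with PBS and 36.9, 36.0 and 35.0 CPM with rhSema3C. Here every treated sample was above every control sample. The rise was 1.62-fold for COL4A6 (log2 fold change 0.70, SE 0.09, adjusted p = 3.61e-05) and 1.23-fold for COL4A5 (log2 fold change 0.30, SE 0.07, adjusted p = 0.00211). Their levels stayed well under those of the first pair, at 1.12 ± 0.0400 FPKM for COL4A6 and 2.32 ± 0.143 FPKM for COL4A5 in PBS, beside 48.3 ± 2.12 FPKM for COL4A2.

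The third type IV pair was below the filter. COL4A4 had 91, 100 and 73 counts with PBS and 171, 214 and 213 counts with rhSema3C. All 3 treated samples were higher, and without a filter it was called (log2 fold change 0.92, SE 0.22, adjusted p = 0.0132). COL4A3, its neighbour at a distance of 170 bases, had at most 13 counts in any sample.

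COL12A1, which encodes the single chain of the fibril-associated type XII collagen, fell with rhSema3C. It measured 147, 155 and 175 CPM with PBS and 98.2, 94.1 and 97.9 CPM with rhSema3C, with no overlap and a 1.64-fold fall (log2 fold change -0.72, SE 0.06, adjusted p = 1.43e-06). COL16A1, another fibril-associated chain, measured 14.3, 14.4 and 13.0 CPM with PBS and 15.4, 15.6 and 12.9 CPM with rhSema3C. Its groups overlapped and it was not called (log2 fold change 0.08, SE 0.10, adjusted p = 0.537). Among the 4 others of this class in the table, COL9A2 had 113, 111 and 63 counts with PBS and 247, 185 and 179 counts with rhSema3C. It was higher in all 3 treated samples, and without a filter it was called (log2 fold change 0.84, SE 0.26, adjusted p = 0.0401). COL21A1, COL20A1 and COL19A1 were not detected in PBS.

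Of the 3 expressed chains of type VI collagen, which forms beaded filaments around cells, only COL6A3 was called. COL6A3, the long α3 chain, measured 141, 156 and 167 CPM with PBS and 323, 298 and 298 CPM with rhSema3C. The treated samples were all far above the controls, and the rise was 1.98-fold (log2 fold change 0.99, SE 0.06, adjusted p = 2.05e-07). It was the largest change of any collagen gene tested, and it lay above 2-fold under 4 other settings, for example library size alone, and under 3 of the 6 fits that left out a sample. COL6A1, the α1 chain, measured 536, 568 and 587 CPM with PBS and 598, 533 and 552 CPM with rhSema3C. COL6A2, the α2 chain and the neighbour of COL6A1 on chromosome 21, measured 746, 791 and 795 CPM with PBS and 833, 780.2 and 829 CPM with rhSema3C. Both overlapped between the groups and neither was called (log2 fold change -0.01, SE 0.05, adjusted p = 0.922 for COL6A1 and log2 fold change 0.07, SE 0.04, adjusted p = 0.204 for COL6A2). Under scaling by library size alone COL6A1 was at 0.10 instead of -0.01 on the log2 scale, and scaling to TPM called both higher, COL6A1 at 0.22 and COL6A2 at 0.29. COL6A6 had at most 4 counts in any sample.

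The other expressed genes of the remaining classes were called lower. COL8A1, a short chain of the network under endothelium and in the cornea, measured 44.2, 45.0 and 46.5 CPM with PBS and 28.6, 27.1 and 28.8 CPM with rhSema3C and fell 1.61-fold (log2 fold change -0.68, SE 0.06, adjusted p = 2.44e-06). COL13A1, a transmembrane collagen of cell adhesion sites, measured 26.9, 24.5 and 23.8 CPM with PBS and 14.2, 14.6 and 16.2 CPM with rhSema3C and fell 1.67-fold (log2 fold change -0.74, SE 0.09, adjusted p = 2.11e-05). COL7A1, the chain of the anchoring fibrils under the epidermis, measured 70.9, 77.5 and 70.9 CPM with PBS and 60.6, 57.8 and 57.0 CPM with rhSema3C and fell 1.25-fold (log2 fold change -0.32, SE 0.05, adjusted p = 0.000288). In these 3 genes the groups did not overlap. COL7A1 was the smallest of these falls and was not called after scaling to TPM (log2 fold change -0.09, adjusted p = 0.224 with limma).

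COL18A1, the multiplexin whose end fragment is endostatin, was the only called gene whose groups overlapped. It measured 158, 177 and 175 CPM with PBS and 159.5, 144 and 146 CPM with rhSema3C, and the first treated sample was above the lowest control. The call was lower (log2 fold change -0.18, SE 0.06, adjusted p = 0.0133), and 8 of 16 other settings gave an adjusted p above 0.05, with an adjusted p of 0.0539 without PBS replicate 2 and 0.243 with library size alone. One of these was scaling to TPM, where it turned to 0.04 on the log2 scale. SLC19A1, the reduced folate carrier gene, overlaps COL18A1 by 20149 bases on the other strand. SLC19A1 itself fell from 4.40 to 2.38 FPKM (log2 fold change -0.99, adjusted p = 1.02e-06). Its part in the COL18A1 value was not tested. Other genes that overlap an expressed collagen gene, among them COL5A1-AS1, PEF1-AS1, COL4A2-AS1 and COL4A2-AS2, had at most 60 counts in any sample, apart from the COL4A1 and COL4A2 pair.

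Below the filter, 3 more genes of the mixed classes fell when every gene of the table was tested. That test called 18 of the 39 collagen genes, 5 higher and 13 lower, beside 24.8% of all 33900 genes. Among all genes 4245 were called higher and 4174 lower. The collagen genes called higher were not the same as in the main test. COL4A4 and COL9A2 entered, and COL5A2 and COL11A2 lost their calls (edgeR without a filter, adjusted p = 0.117 and 0.0909). COL25A1, a transmembrane collagen of nerve and muscle, had 419, 222 and 259 counts with PBS and 102, 124 and 119 counts with rhSema3C (log2 fold change -1.61, SE 0.21, adjusted p = 0.000361). COL17A1, the transmembrane collagen of hemidesmosomes, had 372, 280 and 158 counts with PBS and 160, 126 and 101 counts with rhSema3C (log2 fold change -1.29, SE 0.27, adjusted p = 0.00649). COL10A1, the short-chain collagen of growing cartilage, had 62, 39 and 89 counts with PBS and 12, 29 and 31 counts with rhSema3C (log2 fold change -1.67, SE 0.49, adjusted p = 0.0315). In COL25A1 and COL10A1 the treated samples were all under the controls in FPKM, and in COL17A1 as well, with 0.173 to 0.265 FPKM beside 0.318 to 0.583 FPKM.

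These 3 were the only collagen genes both called and past a fold change of 2 in that test, a call made for 3.59% of all genes there. NT5DC1, which overlaps COL10A1 on the other strand, was at 2.77 FPKM in PBS and 3.74 FPKM with rhSema3C. COL8A2 lay between 0.110 and 0.223 FPKM and COL15A1 between 0.132 and 0.177 FPKM in the 6 samples, with overlapping groups. COL28A1, COL26A1 and COL23A1 were not detected in PBS. COL14A1, COL22A1, COL6A5, COL9A1 and COL9A3 were not analysed here.

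Ratios between chains of a sample do not depend on how the samples are scaled to each other, so they were computed where both genes were expressed. The ratio of COL6A1 to COL6A3 in FPKM lay between 12.9 and 13.96 in the PBS samples and between 6.56 and 6.80 in the rhSema3C samples. It was lower in all 3 treated samples than in any control and went from 13.4 ± 0.553 to 6.72 ± 0.137 (SD, n = 3, log2 difference -0.995). The ratio of COL4A1 to COL4A2 was 0.434, 0.431 and 0.438 with PBS and 0.378, 0.379 and 0.366 with rhSema3C, lower in each treated sample than in any control (log2 difference -0.21). The ratio of COL3A1 to COL1A1, types III and I, was 0.248, 0.240 and 0.222 with PBS and 0.318, 0.312 and 0.316 with rhSema3C, higher in each treated sample than in any control (log2 difference 0.42). For these 3 ratios the exact permutation test gave p = 0.1, the smallest that 3 samples against 3 allow, and 0.167 after adjustment over the 5 ratios tested.

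The other ratios did not separate the groups. The ratio of COL6A1 to COL6A2 was 0.721, 0.721 and 0.741 with PBS and 0.722, 0.685 and 0.669 with rhSema3C, which overlapped (exact permutation p = 0.3, adjusted 0.375). The ratio of COL5A1 to COL5A2 was 0.171 on average in both groups, with an SD of 0.0108 for PBS and 0.00245 for rhSema3C (exact permutation p = 0.9, adjusted 0.9). The size of a ratio, unlike its change, rested on length. Per kilobase of the transcript with the longest coding sequence, COL6A1 exceeded COL6A3 by 9.27 ± 0.382 times in PBS, and COL4A1 was 0.324 ± 0.00277 of COL4A2.

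**Figure D3:**
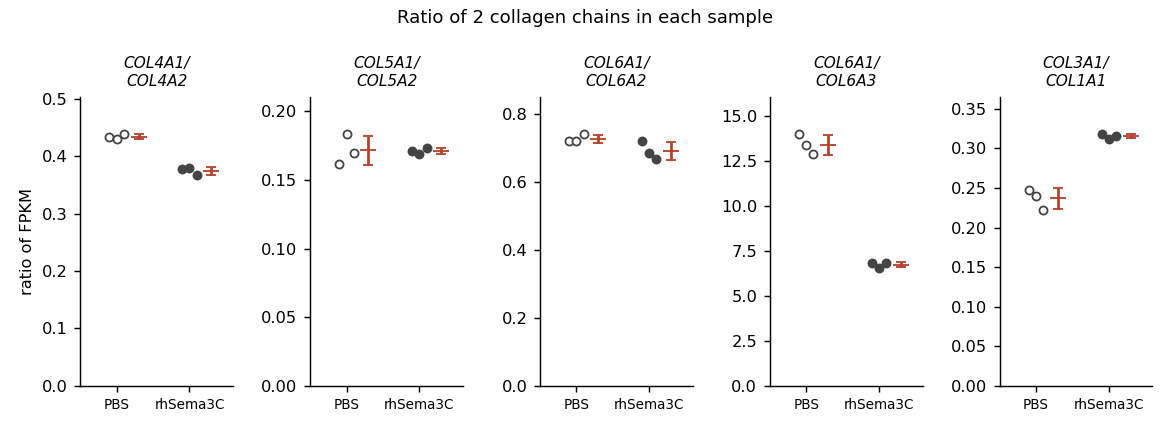
Ratio of the FPKM of 2 collagen chains in each sample (open circles PBS, filled circles rhSema3C) with the group mean and SD (red), each panel on its own axis from 0. The COL6A1 to COL6A3 ratio went from 13.4 to 6.72, while the COL5A1 to COL5A2 ratio was 0.171 in both groups.

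The summed level of the collagen genes did not separate the groups, and within it the part of the type VI genes was larger in every treated sample. Such parts sum to a fixed total, so the part of a gene can grow when another gene falls. Their summed level was 0.187%, 0.202% and 0.209% of all FPKM with PBS and 0.219%, 0.204% and 0.211% with rhSema3C. The groups overlapped (0.200% ± 0.0111 beside 0.211% ± 0.00739, exact permutation p = 0.2). As a share of all counts the values were 0.508% ± 0.0228 and 0.477% ± 0.0163, the opposite direction, also overlapping (p = 0.2, exact permutation test). With mitochondrial genes left out of the total FPKM they were 0.250% ± 0.0105 and 0.248% ± 0.00887 (p = 0.8, exact permutation test).

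Within the collagen FPKM, the beaded filament genes took 42.1%, 42.3% and 41.9% with PBS and 49.2%, 48.4% and 49.6% with rhSema3C. The fibrillar genes went from 37.2% ± 0.105 to 33.8% ± 0.597, the basement membrane genes from 12.5% ± 0.279 to 10.3% ± 0.188 and the fibril-associated genes from 2.36% ± 0.0792 to 1.78% ± 0.0187 (SD, n = 3). None of these shares overlapped between the groups, and 3 samples against 3 cannot give a p below 0.1. The size of each share rests on the length behind the FPKM, as above. By gene, COL1A1 went from 16.5% ± 0.488 to 10.6% ± 0.290 of the collagen FPKM. COL5A2 went from 13.7% ± 0.327 to 16.3% ± 0.310, so that it stood above COL1A1 in all 3 treated samples and below it in all 3 controls. The same order held per kilobase of the transcript with the longest coding sequence, with COL5A2 at 92.8 to 95.8 and COL1A1 at 76.6 to 82.7 CPM per kilobase in the treated samples. COL6A2 went from 23.6% ± 0.281 to 27.4% ± 0.649, and COL6A3 from 1.29% ± 0.0593 to 2.82% ± 0.0479. COL6A1 went from 17.2% ± 0.0844 to 18.9% ± 0.454. COL6A1 and COL6A2, whose parts make up most of the type VI gain, were not called in CPM.

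**Figure D4:**
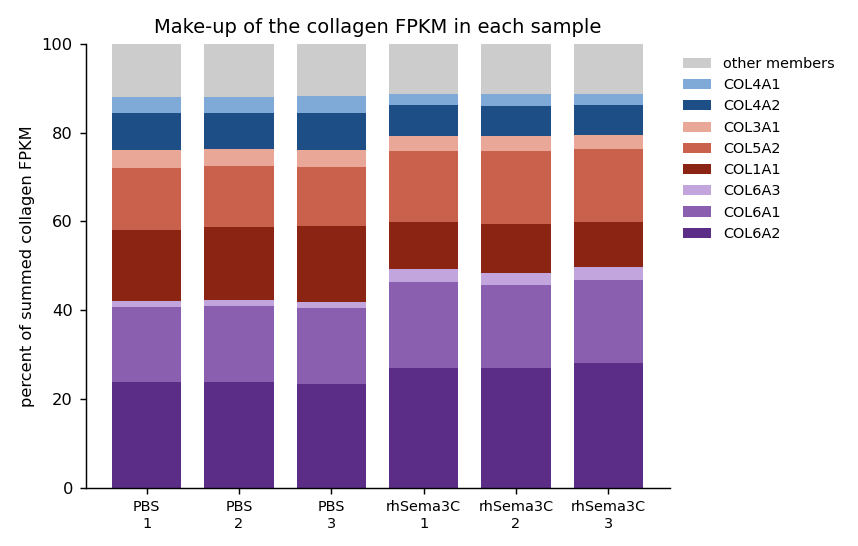
Percent of the summed collagen FPKM taken by 8 collagen genes and by all other members in each of the 6 samples, as stacked bars from 0 to 100. The purple type VI part is larger in the 3 rhSema3C bars, and the dark red COL1A1 part is smaller, 16.5% beside 10.6% on average.

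Genes that make, trim, bind and degrade collagen were taken from lists of known function. Their mean levels with PBS and with rhSema3C are given in FPKM, which carries no TMM scaling, and the direction of a change is that of the fitted log2 fold change. Of 20 genes for hydroxylation, folding and export, 18 were tested, 4 rose, 8 fell and 6 were not called. These are 22.2% higher, 44.4% lower and 66.7% called, beside 31.7%, 30.6% and 62.3% of all genes. P4HA1, a catalytic subunit of prolyl 4-hydroxylase, which collagen needs for a stable helix, went from 16.7 to 41.0 FPKM (log2 fold change 1.19, SE 0.05, adjusted p = 8.91e-09). P4HA2, an alternative catalytic subunit and the higher in both groups, went from 50.1 to 66.5 FPKM (log2 fold change 0.30, SE 0.04, adjusted p = 7.18e-05). MIA2, an export factor for large cargo, went from 0.990 to 2.08 FPKM (log2 fold change 0.96, SE 0.09, adjusted p = 4.21e-06). SERPINH1, the collagen chaperone HSP47, went from 59.3 to 41.6 FPKM (log2 fold change -0.62, SE 0.05, adjusted p = 6.78e-07), and MIA3, the export receptor for procollagen, from 2.71 to 4.45 FPKM (log2 fold change 0.61, SE 0.07, adjusted p = 2.89e-05). P4HB, the partner subunit of P4HA1 and the called gene with the highest level, fell from 279 to 252 FPKM (log2 fold change -0.25, SE 0.04, adjusted p = 0.000157). Every one of these was separated between the groups in FPKM. The summed level of the list was 942 to 972 FPKM with PBS and 891 to 900 FPKM with rhSema3C. Its largest parts were P4HB and PPIB, the latter at 243 FPKM with PBS and 208 FPKM with rhSema3C.

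Of 13 genes for procollagen trimming and crosslinking, 9 were tested, 2 rose, 4 fell and 3 were not called. The shares were 22.2% higher, 44.4% lower and 66.7% called, beside 31.7%, 30.6% and 62.3% of all genes. LOX, the lysyl oxidase that crosslinks collagen and elastin, rose from 8.02 to 17.8 FPKM (log2 fold change 1.05, SE 0.05, adjusted p = 3.69e-08). ADAMTS14, a procollagen N-proteinase, went from 0.352 to 0.856 FPKM (log2 fold change 1.17, SE 0.16, adjusted p = 8.03e-05), and TLL1, a C-proteinase of the BMP1 family, from 0.835 to 0.267 FPKM (log2 fold change -1.74, SE 0.17, adjusted p = 6.04e-06). Both passed the filter only through the group where they were high, so they had to differ. Without these 2 genes, 1 of 7 rose and 3 fell. Of the 4 relatives of LOX, 2 were called lower. LOXL1 fell from 5.23 to 4.06 FPKM (log2 fold change -0.47, SE 0.11, adjusted p = 0.00388), and LOXL2, the called gene with the highest level in this list, fell from 117 to 99.2 FPKM (log2 fold change -0.34, SE 0.05, adjusted p = 8.91e-05). LOXL3 (log2 fold change 0.09, SE 0.14, adjusted p = 0.593) and LOXL4 (log2 fold change -0.32, SE 0.15, adjusted p = 0.0851) were not called.

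Of 10 collagen receptor genes, 9 were in the table, 6 were tested, 3 rose, 1 fell and 2 were not called. That is 50.0% higher, 16.7% lower and 66.7% called, beside 31.7%, 30.6% and 62.3% of all genes. DDR2, the discoidin domain receptor for fibrillar collagen, rose from 6.90 to 15.5 FPKM (log2 fold change 1.06, SE 0.04, adjusted p = 8.51e-09). The integrin chains ITGA1 and ITGA2 rose from 2.30 to 4.46 FPKM (log2 fold change 0.85, SE 0.06, adjusted p = 4.21e-07) and from 10.4 to 14.5 FPKM (log2 fold change 0.37, SE 0.05, adjusted p = 7.34e-05). DDR1, the relative of DDR2 found mostly on epithelium, fell from 6.55 to 5.42 FPKM (log2 fold change -0.37, SE 0.06, adjusted p = 0.000271). ITGB1, the β1 chain that both of these integrin chains need and the receptor gene with the highest level, was not called (log2 fold change -0.04, SE 0.05, adjusted p = 0.463). Its mean FPKM was 223 with PBS and 233 with rhSema3C, the opposite direction to the fit.

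Of 9 genes for collagen breakdown and its inhibition, 7 were tested, none rose, 4 fell and 3 were not called. All genes called were thus lower, at 57.1% of those tested, beside 30.6% lower and 62.3% called of all genes. They were the enzymes MMP2 and MMP1 and the inhibitors TIMP2 and TIMP1, so this share joins opposite functions. MMP2, a gelatinase, fell from 13.2 to 6.45 FPKM (log2 fold change -1.14, SE 0.06, adjusted p = 3.31e-08). The inhibitors TIMP2 and TIMP1 fell as well, from 116 to 87.6 FPKM (log2 fold change -0.51, SE 0.06, adjusted p = 1.44e-05) and from 229.9 to 184 FPKM (log2 fold change -0.43, SE 0.04, adjusted p = 3.89e-06). MMP1, the interstitial collagenase, was the called gene with the highest level and fell from 833 to 785 FPKM (log2 fold change -0.19, SE 0.04, adjusted p = 0.000712). MMP9, the other gelatinase, had a higher level than MMP2, at 33.1 FPKM with PBS and 37.2 FPKM with rhSema3C. It was not called (log2 fold change 0.07, SE 0.06, adjusted p = 0.329). MMP14, the membrane-bound activator of MMP2, was not called either (log2 fold change -0.08, SE 0.05, adjusted p = 0.197). Over these 4 lists 9 of 40 genes tested rose and 17 fell, or 65.0% called, which is near the 62.3% of all genes. Without ADAMTS14 and TLL1 the counts were 8 and 16 of 38. Under limma on log2(TPM + 1) 17 rose and 9 fell, while edgeR with library size alone gave 12 and 15 and limma on log2(FPKM + 1) gave 11 and 15.

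The label of the cells was set beside its markers. Of 12 markers of activated stellate cells, 10 were expressed in PBS, among them VIM at 1035 FPKM, SPARC, ACTA2 and the TIMP1 and LOX already counted above. DES was not detected and PDGFRA was low. Of the 10 tested, 7 fell, 1 rose and 2 were not called, with a median log2 fold change of -0.42. That is 70.0% lower and 10.0% higher, beside 30.6% and 31.7% of all genes. TAGLN, a smooth muscle actin-binding protein, fell from 58.4 to 9.66 FPKM (log2 fold change -2.70, SE 0.06, adjusted p = 2.39e-10). ACTA2 fell from 14.3 to 10.4 FPKM (log2 fold change -0.56, SE 0.07, adjusted p = 3.11e-05). For ACTA2 the study reported the opposite, with higher mRNA by qRT-PCR and more of its protein, α-SMA, in LX-2 cells given rhSema3C. The source of that difference was not tested. The summed level of the list was 1507 to 1569 FPKM with PBS and 1200 to 1266 FPKM with rhSema3C. Most of this sum was VIM, which fell from 1035 to 834 FPKM (log2 fold change -0.41, SE 0.04, adjusted p = 5.34e-06). The part of these changes in the collagen values was not tested.

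Many markers of other cell types were not detected, and some were expressed. Of the 4 hepatocyte markers in the table, ALB, APOA1 and HNF4A were not detected and SERPINA1 was higher with treatment, and the list summed to 2.65 to 3.15 FPKM with PBS and 3.52 to 4.16 FPKM with rhSema3C. Of the 5 biliary and epithelial markers, EPCAM and CDH1 were not detected, and the sum was 12.4 to 14.7 FPKM and 8.60 to 9.32 FPKM. SOX9 fell from 9.94 to 5.45 FPKM. KRT7 was expressed, at 2.95 FPKM with PBS and 3.21 FPKM with rhSema3C, and was not called, and KRT19 was low. Of the 6 endothelial markers, PECAM1, CDH5, STAB2 and LYVE1 were not detected, and the sum was 0.803 to 1.06 FPKM and 1.27 to 1.70 FPKM. Of the others, VWF, the von Willebrand factor, was under the filter at 0.0902 to 0.120 FPKM with PBS and 0.542 to 0.760 FPKM with rhSema3C, and KDR was not called, at 0.723 and 0.720 FPKM. Of the 6 immune markers, PTPRC, CD163 and CD3E were not detected, CD68 and CD14 fell, and the sum was 94.7 to 103 FPKM and 66.9 to 72.7 FPKM, nearly all of it CD68.

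The direction and call of most collagen genes held under every setting tried. COL1A1, COL3A1, COL27A1, COL4A1, COL4A2, COL12A1, COL8A1 and COL13A1 were called lower, and COL4A5, COL4A6 and COL6A3 called higher, in each of the 15 or 16 other fits in which they could be tested. For COL1A1 the log2 fold change lay between -0.83 and -0.55, and for COL6A3 between 0.92 and 1.18. COL5A2, COL11A2, COL18A1 and COL7A1 lost their call in at least 1 fit, as given above. COL5A1 gained a call in 6 fits, COL6A2 in 5, and COL16A1 and COL6A1 after scaling to TPM.

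**Figure D5:**
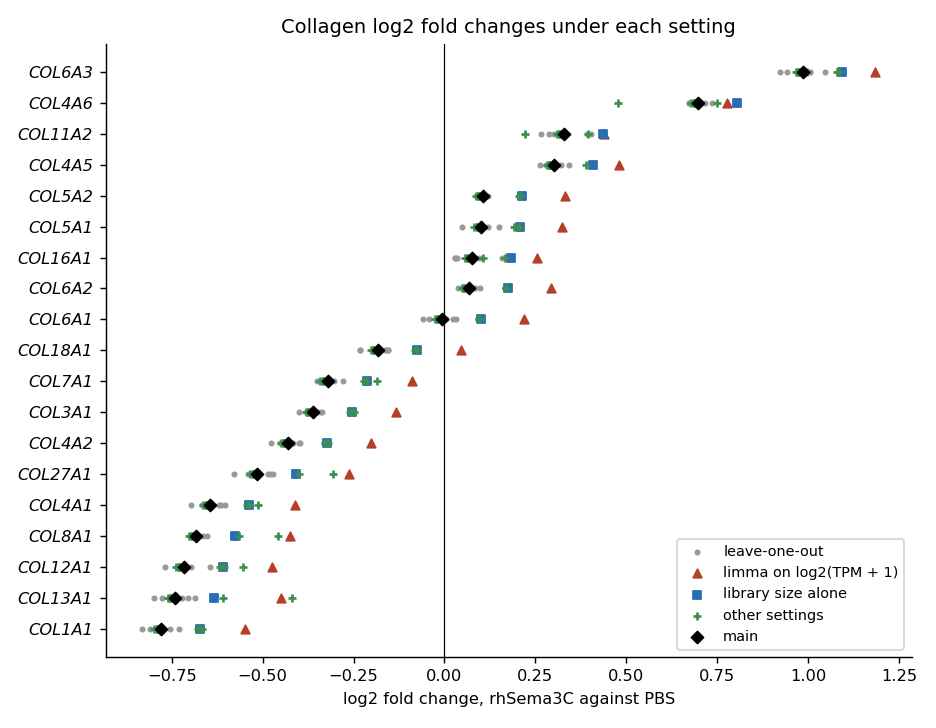
Log2 fold change of the 19 collagen genes tested under the test used throughout (black diamonds), with each sample left out in turn (grey), scaled by library size alone (blue), scaled to TPM and fitted with limma (red) and under the other settings (green). The red points lie right of the black ones for every gene, which moves COL6A1 from -0.01 to 0.22 and COL1A1 from -0.78 to -0.55.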

How the data were processed

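RNA of LX-2 cells was sequenced by the authors on an Illumina NovaSeq instrument from libraries made with an mRNA kit, per the labels and the study's methods. For each of 33900 genes the authors deposited whole-number counts, not normalised, and FPKM values, scaled by the authors to gene length and library size. The aligner, genome build and strand setting are not given in the sources used here. The spans of all 39 collagen genes overlapped those of GENCODE v29 on GRCh38. A count of 1 stood beside FPKM near 0, so small counts may be rounded estimates.

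The members and lists were chosen with earlier results of these data known. Counts of the 14178 genes with a mean of at least 0.5 FPKM were fitted with edgeR 4.0.16 (quasi-likelihood, TMM, no covariate, 3 samples against 3), with Benjamini-Hochberg adjustment over all of them. Genes called had an adjusted p below 0.05. Every member expressed in PBS (at least 1 FPKM in all 3 PBS samples) or called was named, as were genes overlapping it, and of each further list up to 4 called genes of largest change and the called gene of highest level. ITGB1, P4HA2, PPIB, MMP9, MMP14, LOXL3, LOXL4, the markers and the uncalled low genes named beside a result were chosen after their values were seen. Chain ratios and shares were compared by two-sided exact permutation tests. Motifs were searched in RefSeq promoter windows (GRCh38.p14) on both strands.

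Alternatives used other scalings, filters, DESeq2 1.42.0, limma 3.58.1 on log2(FPKM + 1), log2(FPKM + 0.1) and log2(TPM + 1), a replicate block, and fits without each sample in turn. Levels per kilobase of 1 transcript were added after seeing the data. On simulated counts for 14178 genes with 200 changed, edgeR recovered 85% of the genes changed by a log2 of 1 and 99% of those changed by a log2 of 2, with 15 false calls. Changes below a log2 of 1 were not simulated, and far fewer genes changed than the 62.3% called here. These rates need not hold for the smaller changes of the collagen genes. Replicates of a group differed by more than counting noise (chi-square per degree of freedom 13.5 to 22.1), so each was counted as 1 sample. Depth was 68267808 to 89245585 counts per sample. R 4.3.3 and matplotlib 3.10.9 were used.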

Additional observations from a re-analysis of the deposited data

How the results depend on the processing

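Of the 297 comparisons of a single collagen gene with another setting, 253 kept direction and side of the threshold. With the direction kept, 23 lost a call and 12 gained one, and 9 changed sign, among them COL18A1 and COL6A1 under TPM, where COL18A1 also lost its call and COL6A1 gained one. The sign changed for COL6A1, which was not called, at 0.10 with library size alone, 0.094 with a mean of at least 5 FPKM, 0.094 and 0.095 with limma at pseudocounts of 1 and 0.1, 0.22 after scaling to TPM, and 0.023, 0.031 and 0.0048 without PBS replicate 3, rhSema3C replicate 2 and rhSema3C replicate 3 (-0.058 to 0.031 over all samples left out). COL18A1 turned to 0.044 after scaling to TPM. Where no value shows why, the cause was not tested.

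The 5 collagen genes called higher became 9 after scaling to TPM, 3 with a replicate block and 3 to 5 when samples were left out. The 10 called lower became 6 when only genes of at least 5 FPKM were tested, which left fewer members, and were 9 to 10 with samples left out. COL6A3 passed a fold of 2, making 1 gene in place of 0, with library size alone, at 5 FPKM, with limma at a pseudocount of 0.1, after scaling to TPM, and 0 to 1 genes passed it with samples left out. Without a filter or with filterByExpr, 3 genes called lower passed it in place of 0. In the 4 functional lists, 9 higher and 17 lower became 17 and 9 with limma on log2(TPM + 1). Over all genes, 4490 higher and 4339 lower became 2603 and 2621 at 5 FPKM and 6934 and 2428 after scaling to TPM.

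The class medians are of 2 to 7 genes and changed easily. For the fibrillar genes (-0.13) the median was -0.023 with library size, -0.37 without a filter and with filterByExpr, -0.029 at 5 FPKM, -0.028 and -0.027 with limma at 1 and 0.1, and 0.096 with TPM. For the basement membrane genes (-0.06) it was 0.042 with library size, 0.49 without a filter, -0.44 at 5 FPKM, 0.28 with filterByExpr, 0.032 with limma at 0.1 and 0.14 with TPM. For the fibril-associated genes (-0.32) it was -0.21 with library size, 0.45 without a filter and with filterByExpr, -0.62 at 5 FPKM, -0.22 with both limma pseudocounts and -0.11 with TPM. For the other genes (-0.18) it was -0.075 with library size, -0.076 and -0.079 with limma at 1 and 0.1, 0.094 at 5 FPKM, -0.34 with filterByExpr and 0.044 with TPM. The median of all genes (0.02) was 0.012 with median-of-ratios factors, 0.011 with DESeq2, 0.13 with library size, 0.075 without a filter, -0.0053 at 5 FPKM, 0.037 with filterByExpr, 0.093 and 0.12 with limma at 1 and 0.1, and 0.23 with TPM. Filters change which members enter these medians.

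The collagen share differed by 0.0117 percentage points of all FPKM, by -0.0307 of all counts and by -0.00184 with mitochondrial genes left out of the total. The log2 difference of the COL5A1 to COL5A2 ratio, -0.0023, lay between -0.043 and 0.046 with samples left out, and was 0.046 without PBS replicate 2 and 0.0078 without rhSema3C replicate 2. Same-numbered samples did not deviate together (correlations -0.0041, 0.058 and -0.027), so the numbers were not taken to pair the samples. With the replicate block, 3 collagen genes were called higher and 10 lower, COL5A2 (adjusted p = 0.113) and COL11A2 (adjusted p = 0.057) losing their calls in edgeR.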
